A study of Mus musculus with 16 samples.

Results

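Complement components and regulators were followed in mouse cortex as 7 genes: C1qa, C1qb and C1qc, C4b, C3, Serping1 and Cd59a. They were picked by symbol from a table of 53801 genes, by a rule that sets no limit on their values, and each symbol had 1 row. The list itself was chosen with earlier results of these data known. Of the 7, C1qa, C1qb, C1qc, C4b and Cd59a were abundant enough to enter the fit across 10363 genes, whereas C3 and Serping1 fell below its count filter. All animals were C57BL/6 mice of 12 to 12.93 months, with 1 library of polyadenylated RNA per animal, sequenced from transcript 3' ends. KO AAV animals (n = 5, 3 males and 2 females) were Grn KO mice that had received AAV-8D3:PGRN, at 300000000000 vector genomes (vg) by tail vein. This liver-targeting virus encodes human progranulin joined to 8D3, an antibody fragment against the mouse transferrin receptor, so the protein is meant to be made in liver and carried to brain. KO saline animals (n = 5, 4 males and 1 female) were Grn KO mice given saline, and WT saline animals (n = 6, 3 males and 3 females) were Grn WT mice given saline. The deposited annotation gives a treatment duration of 8 months for all 3 groups. Grn, which encodes progranulin, is therefore missing from both KO groups, and the sources used here do not name the promoter of the transgene.

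Complement is a cascade of secreted proteins that tags targets for removal. In its classical branch, the recognition molecule C1q binds a target and its partner proteases cut C4. Cleavage of C3 follows, and the C3 fragments left on the surface are read by receptors on phagocytes. Brain C1q comes chiefly from microglia, the resident macrophages of brain, and C1q and C3 are known for their part in the removal of synapses. Progranulin is a secreted and lysosomal protein, and mice lacking it have been described as having raised complement in brain and more microglial removal of synapses.

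The C1q molecule is built from A, B and C chains, whose genes lie next to each other on the minus strand of chromosome 4 (GRCm38, GENCODE M21). C1qb (ENSMUSG00000036905) spans 136880129 to 136886187, C1qc (ENSMUSG00000036896) spans 136889804 to 136893065, and C1qa (ENSMUSG00000036887) spans 136895917 to 136898803. The 3 genes fit into 18675 bases, with gaps of 3616 and 2851 bases between neighbours. Start-site regions of C1qb and C1qc are shown because these neighbours were read out together below; they run from 250 bases before to 50 bases after the RefSeq start (GRCm38.p6, minus strand), and capitals mark the motif matches.
C1qb, chr4:136886151-136886450: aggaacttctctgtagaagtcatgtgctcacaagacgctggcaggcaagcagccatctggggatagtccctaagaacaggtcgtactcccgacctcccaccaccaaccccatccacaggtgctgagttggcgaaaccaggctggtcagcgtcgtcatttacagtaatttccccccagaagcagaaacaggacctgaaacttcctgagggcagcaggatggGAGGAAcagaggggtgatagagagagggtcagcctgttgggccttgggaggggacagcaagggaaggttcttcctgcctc
C1qc, chr4:136892865-136893164: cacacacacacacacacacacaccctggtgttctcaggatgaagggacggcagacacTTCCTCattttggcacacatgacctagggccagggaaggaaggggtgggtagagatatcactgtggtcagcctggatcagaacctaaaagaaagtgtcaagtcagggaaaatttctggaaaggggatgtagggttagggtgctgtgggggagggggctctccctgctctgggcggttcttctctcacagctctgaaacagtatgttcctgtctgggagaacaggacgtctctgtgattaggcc

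The motifs searched, on both strands, were GAGGAA (the core bound by PU.1, a transcription factor of myeloid cells), the interferon-stimulated response element, TTCNNNGAA (gamma-activated site), TTGCNNAA (C/EBP), TGANTCA (AP-1) and CACGTG (E-box). Both C1q regions held GAGGAA and none of the other 5. It lay at -30 to -25 from the RefSeq start in C1qb, and at -193 to -188, read on the opposite strand as TTCCTC, in C1qc. The GENCODE gene C1qc has its 5' end at 136893065, upstream of the RefSeq start, so the distance in C1qc depends on the start used. GAGGAA occurs in 28.3% of 32851 RefSeq start-site regions of the same length, so these matches are a description of the letters. The table held 4 of the 7 genes. In the other 2, Cd59a held GAGGAA and the interferon-stimulated response element, which 3.44% of regions hold, and C3 held TTGCNNAA, which 10.8% hold.

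Total counts per library ran from 1614251 to 1867168 in KO AAV, 1351974 to 1720657 in KO saline and 1626788 to 2119019 in WT saline. Mitochondrial transcripts took 20.4% to 29.8% of them. Levels are depth-scaled counts (CPM) over totals scaled by TMM, and since each transcript is counted at its 3' end they are not divided by gene length. Grn had 0 counts in each KO AAV and KO saline library, against 226 counts over the 6 WT saline libraries. The RNA integrity number was 8 in KO saline replicate 4 and WT saline replicate 3, and higher in all others. These are whole-tissue samples, in which fewer cells of a type and less RNA per cell cannot be told apart. Nothing states that animals came from separate litters, so p-values measure the spread between these animals.

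**Figure D1:**
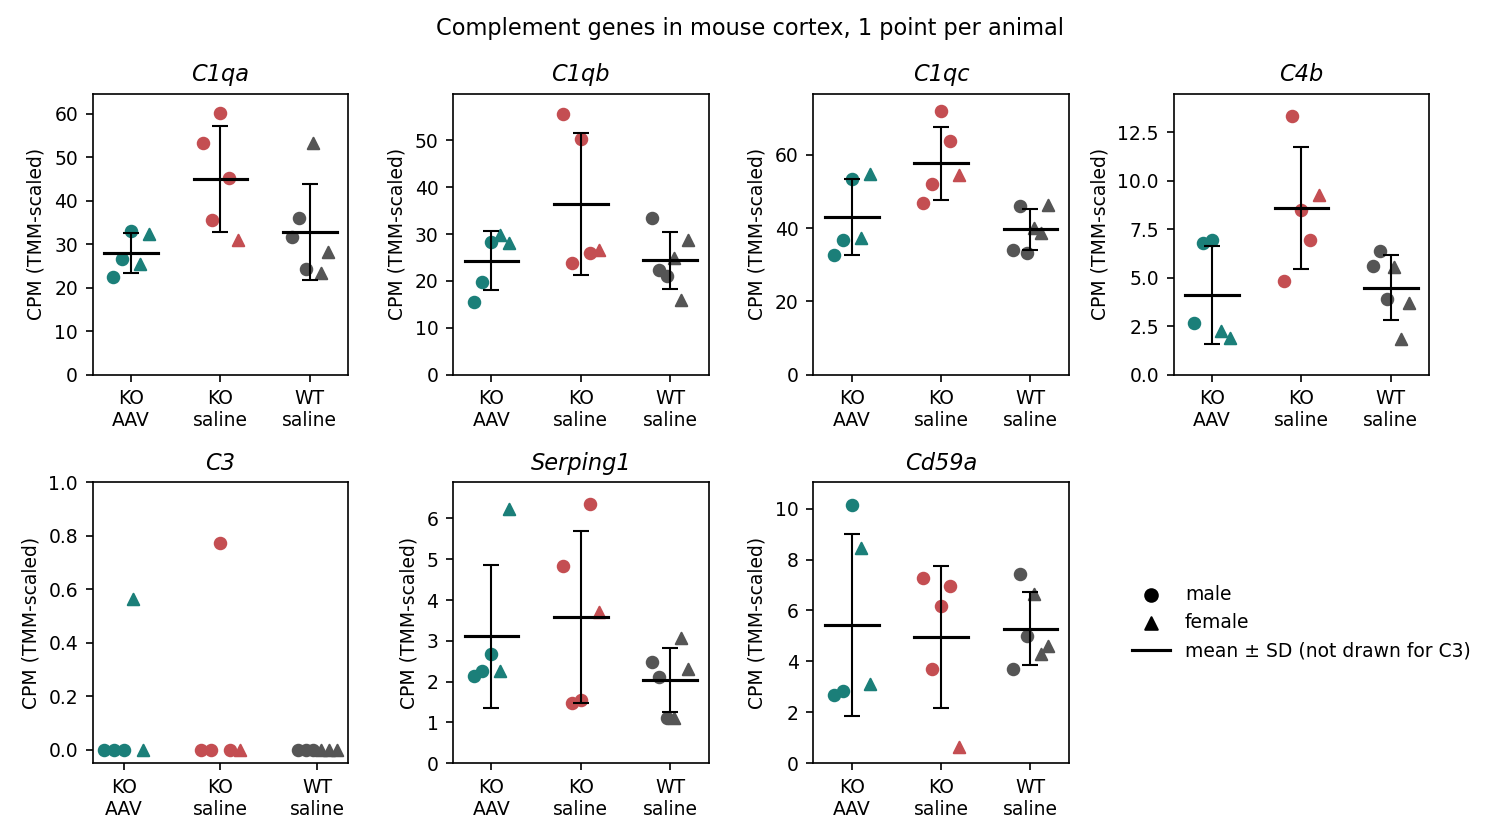
CPM of the 7 complement genes by group (KO AAV, KO saline, WT saline), 1 point per animal, circles for males and triangles for females, with mean and SD bars except for C3. C1qc of all 5 KO saline animals lay above all 6 WT saline animals, while in every other panel the groups overlap. The C1qc gap was narrow, 46.8 against 46.2 CPM at the nearest, and in the CPM deposited by the authors these 2 groups overlap.

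The comparison of KO saline with WT saline asks what the loss of progranulin changed. The 3 C1q chain genes and C4b had higher means in KO saline, with fitted folds of 1.36 (C1qa), 1.47 (C1qb), 1.45 (C1qc) and 1.90 (C4b). None passed an adjusted p of 0.05 over all genes in edgeR's quasi-likelihood test (adjusted p = 0.994 each), which 0.0482% of the 10363 genes did, and DESeq2 and limma also called 0. At an unadjusted p under 0.05 stood 4 of the 5 tested complement genes, all on the higher side. Of all tested genes, 4.11% had such a p, with 2.34% higher and 1.77% lower in KO saline. A positive log2 change was found for 4 of the 5, and for 50.9% of all tested genes. Because the genes were chosen with earlier results of these data known, setting them beside these shares is a description and no test. The 3 C1q chain genes also varied together in part, so the 4 are not separate results.

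The comparison of KO AAV with KO saline asks what the virus changed in knockout cortex. The same 4 genes had lower means in KO AAV, at fitted folds of 0.625 (C1qa), 0.675 (C1qb), 0.743 (C1qc) and 0.488 (C4b). Again none passed over all genes in edgeR (adjusted p = 1.00 each; 0.0193% of all genes passed), nor in DESeq2 or limma. Unadjusted p were under 0.05 for 4 of the 5, all on the lower side, against 2.49% of all tested genes in either direction and 1.62% on the lower side. A positive log2 change was found for 1 of the 5, Cd59a, and for 47.6% of all tested genes. These counts carry the same limits of gene choice and of chains that vary together. The 2 comparisons share the 5 KO saline libraries, so a KO saline library that is high or low by chance moves both, in opposite directions.

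C1qa encodes the A chain of C1q. It measured 22.5, 26.6, 33.1, 25.4 and 32.4 CPM in the 5 KO AAV animals. In KO saline the 5 values were 53.2, 35.6, 60.2, 45.1 and 30.9 CPM, and in WT saline the lowest, median and highest of 6 were 23.3, 29.9 and 53.2 CPM. KO saline replicates 1 and 3 were high, and WT saline replicate 4 was as high as replicate 1 of KO saline, so KO saline and WT saline overlapped. KO AAV overlapped KO saline through the single lowest KO saline animal, a female. The log2 change was 0.45 (SE 0.21, 95% interval 0.02 to 0.87) for KO saline over WT saline and -0.68 (SE 0.22, -1.13 to -0.22) for KO AAV over KO saline.

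C1qb encodes the B chain, and its KO saline animals were split. KO AAV animals had 15.5, 19.8, 28.3, 29.9 and 28.0 CPM. KO saline replicates 1 and 3 had 55.7 and 50.2 CPM, while replicates 2, 4 and 5 had 23.7, 26.05 and 26.6 CPM. WT saline ran from 15.97 through a median of 23.6 to 33.5 CPM, so that those last 3 KO saline animals lay within the WT saline range. The log2 change of 0.56 (SE 0.24, 95% interval 0.06 to 1.06) for KO saline over WT saline was 0.35 without KO saline replicate 1 and 0.40 without replicate 3. Likewise, the -0.57 (SE 0.25, -1.09 to -0.04) for KO AAV over KO saline was -0.36 and -0.41 without those animals.

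C1qc, the C chain gene, separated the saline groups most evenly. Its KO AAV values were 32.7, 36.7, 53.4, 37.2 and 54.8 CPM. KO saline values were 46.8, 51.9, 71.8, 63.7 and 54.4 CPM, all above WT saline, whose lowest, median and highest were 33.2, 39.3 and 46.2 CPM. Groups that do not overlap in that direction were found for 0.27% of tested genes and for 1 of the 5 complement genes, this one. KO AAV replicates 3 and 5 lay inside the KO saline range and the other 3 KO AAV animals lay below it. The log2 changes were 0.54 (SE 0.16, 95% interval 0.21 to 0.87) for KO saline over WT saline and -0.43 (SE 0.17, -0.77 to -0.08) for KO AAV over KO saline. Counts of 100 or more were deposited rounded, by at most 5%, which touches 1 library in each group for this gene. In WT saline it is replicate 6, the highest at 46.2 CPM, close to KO saline replicate 1 at 46.8 CPM. In the CPM deposited by the authors these groups overlapped, with 45 in KO saline replicate 1 against 46 and 47 in WT saline replicates 2 and 6. The separation of the saline groups is therefore not secure.

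C4b (ENSMUSG00000073418, minus strand of chromosome 17, 34728380 to 34743882) encodes complement component C4, a substrate of the C1 proteases. In brain it is known as a gene of astrocytes and oligodendrocytes. Its counts were low, 37 over the 5 KO AAV libraries, 62 over the 5 KO saline libraries and 49 over the 6 WT saline libraries. KO AAV animals measured 2.68, 6.78, 6.94, 2.26 and 1.87 CPM, the males of replicates 2 and 3 standing apart from the rest. KO saline animals measured 4.84, 13.3, 8.49, 6.95 and 9.26 CPM. WT saline ran from 1.84 through 4.71 to 6.36 CPM, below 4 of the 5 KO saline animals. KO saline replicate 1 lay below KO AAV replicates 2 and 3 and among WT saline, so the groups overlapped in both comparisons. KO saline replicate 4 was level with KO AAV replicate 3 (6.95 and 6.94 CPM), and below it in the CPM deposited by the authors (6.8 and 6.9). The log2 change was 0.92 (SE 0.35, 95% interval 0.20 to 1.65) for KO saline over WT saline and -1.04 (SE 0.37, -1.81 to -0.26) for KO AAV over KO saline. C4a, the close paralog of C4b, was listed at 0 in all libraries, and the sources used here do not say how reads common to both were assigned.

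**Figure D2:**
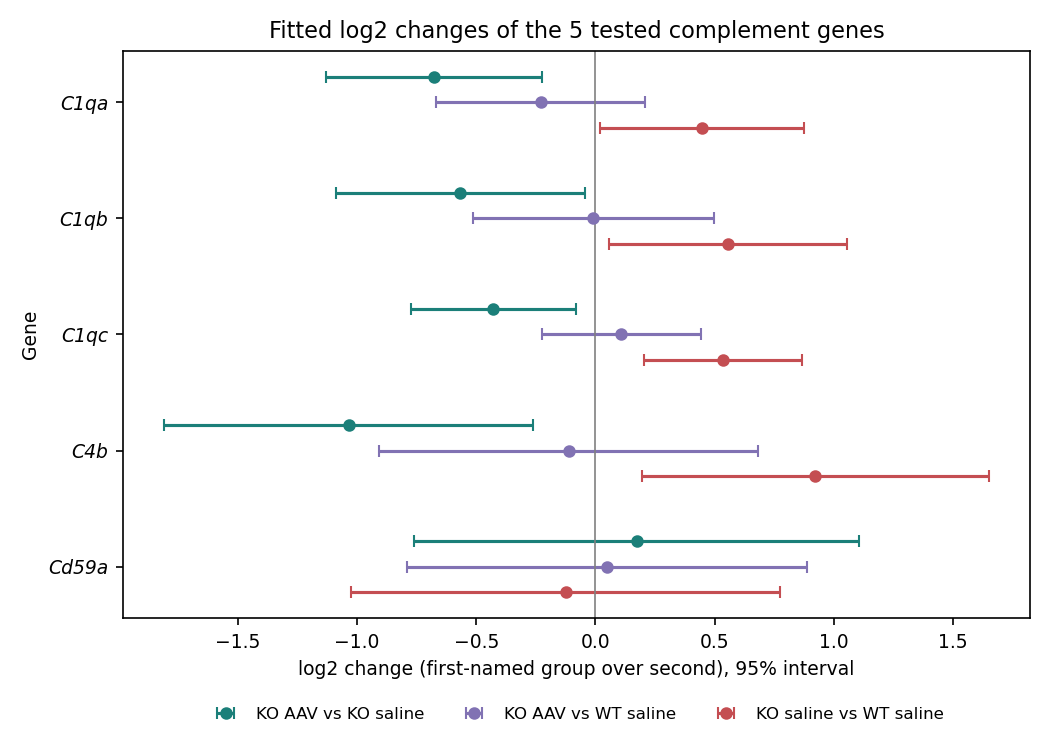
Fitted log2 changes (edgeR) with 95% intervals for the 5 complement genes that were tested, in KO AAV over KO saline, KO AAV over WT saline and KO saline over WT saline. Intervals of C1qa, C1qb, C1qc and C4b lie above 0 for KO saline over WT saline and below 0 for KO AAV over KO saline, before any adjustment for the number of genes, and all 5 genes span 0 for KO AAV over WT saline.

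C3 (ENSMUSG00000024164, minus strand of chromosome 17, 57203970 to 57228136), the central component on which all complement branches meet, was at the limit of detection. Single counts were found in KO AAV replicate 4 and KO saline replicate 3, and none in the 6 WT saline libraries. A floor of 3 counts over a group corresponds to 0.338 CPM in KO AAV, 0.415 CPM in KO saline and 0.275 CPM in WT saline, so no fold is given. A difference in C3 was not detectable at this depth.

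Serping1 (ENSMUSG00000023224, minus strand of chromosome 2, 84765387 to 84775444) encodes C1 inhibitor, which blocks the C1 proteases. Its 5 KO AAV values were 2.14, 2.26, 2.67, 2.26 and 6.23 CPM, the female of replicate 5 standing apart. KO saline values were 4.84, 1.48, 1.54, 6.37 and 3.71 CPM, and WT saline had 1.11, 2.21 and 3.07 CPM as its lowest, median and highest. Means were 3.59 ± 2.12 CPM in KO saline and 2.03 ± 0.784 CPM in WT saline (SD, n = 5 and 6), with overlap and a two-sided exact permutation p of 0.126. KO AAV averaged 3.11 ± 1.75 CPM, with exact permutation p of 0.698 against KO saline and 0.19 against WT saline. The smallest p these designs allow is 0.00216 for 5 against 6 and 0.00794 for 5 against 5, and the p-values for this gene are not adjusted.

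Cd59a (ENSMUSG00000032679, plus strand of chromosome 2, 104095801 to 104115354) encodes a membrane-anchored inhibitor of the terminal, membrane-attacking steps. KO AAV animals measured 2.68, 2.82, 10.1, 8.46 and 3.11 CPM. KO saline animals measured 7.26, 3.71, 6.18, 6.95 and 0.618 CPM, and WT saline ran from 3.72 through 4.80 to 7.42 CPM. The KO groups spread more widely than WT saline. KO AAV passed the WT saline range on both sides, and KO saline on the low side, by its replicate 5 from 1 count. KO saline replicate 2 was level with the lowest WT saline animal (3.71 and 3.72 CPM, and 3.6 each in the CPM deposited by the authors). Log2 changes were -0.12 (SE 0.43, 95% interval -1.02 to 0.77) for KO saline over WT saline and 0.17 (SE 0.45, -0.76 to 1.11) for KO AAV over KO saline. As folds, these intervals run from 0.492 to 1.71 and from 0.591 to 2.15, so the data do not show that Cd59a was alike in the groups. Its counts were 49 over KO AAV, 35 over KO saline and 58 over WT saline libraries.

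The remaining comparison, KO AAV against WT saline, asks how far treated knockout cortex differed from wild type. None of the 5 tested complement genes had an unadjusted p under 0.05, which 4.02% of all genes did (2.36% lower and 1.66% higher in KO AAV), and none passed in edgeR after adjustment, DESeq2 or limma (0.00965% of all genes passed in edgeR). C1qa averaged 28.0 ± 4.60 CPM in KO AAV and 32.8 ± 11.0 CPM in WT saline (SD, n = 5 and 6; log2 change -0.23, 95% interval -0.67 to 0.21). C1qb averaged 24.3 ± 6.30 CPM in KO AAV and 24.4 ± 6.12 CPM in WT saline (log2 change -0.01, -0.52 to 0.50). C1qc averaged 43.0 ± 10.3 CPM in KO AAV and 39.7 ± 5.62 CPM in WT saline (log2 change 0.11, -0.23 to 0.44). The C1q chain genes thus had no common sign here. C4b averaged 4.10 ± 2.53 CPM in KO AAV and 4.48 ± 1.66 CPM in WT saline (log2 change -0.11, -0.91 to 0.68), and Cd59a was at 0.05 (-0.79 to 0.89). As folds, the intervals run from 0.855 to 1.36 for C1qc and from 0.533 to 1.61 for C4b, so these genes are not shown to be at wild-type level.

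Over the 5 tested genes the median log2 change was 0.54 for KO saline over WT saline, -0.57 for KO AAV over KO saline and -0.01 for KO AAV over WT saline. Over all tested genes it was 0.004, -0.010 and -0.005. The count of 4 at an unadjusted p under 0.05 for KO saline over WT saline was 2 when KO saline replicate 1 or 3, or WT saline replicate 3 or 5, was left out, and 2 among males. The count of 4 for KO AAV over KO saline was 2 when KO AAV replicate 1 or KO saline replicate 3 was left out, and 3 among males. Among males the log2 changes for KO saline over WT saline were 0.65 (C1qa), 0.59 (C1qb), 0.62 (C1qc) and 0.66 (C4b), and those for KO AAV over KO saline were -0.80, -0.84, -0.50 and -0.60 in the same order. With only 1 female in KO saline, females gave no value of their own.

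The C1q level was next set beside that of microglia. The 3 chains summed to 70.7, 83.1, 114.8, 92.5 and 115.3 CPM in KO AAV and to 155.7, 111.2, 182.2, 134.9 and 111.8 CPM in KO saline. In WT saline the sum ran from 78.0 through 101.1 to 118.0 CPM. The 9 microglial marker genes used (Cx3cr1, P2ry12, Tmem119, Csf1r, Aif1, Siglech, P2ry13, Gpr34 and Sall1) were all tested, none with an unadjusted p under 0.05 in any comparison. Their summed level was 277 to 319 CPM in KO AAV, 255 to 391 CPM in KO saline and 274 to 327 CPM in WT saline, KO saline replicates 3 and 1 being highest in this sum as well.

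Divided by that marker sum, C1q stood at 0.240, 0.273, 0.360, 0.306 and 0.417 in KO AAV and at 0.445, 0.402, 0.466, 0.528 and 0.394 in KO saline. In WT saline the ratio ran from 0.266 through 0.325 to 0.363. All 5 KO saline animals lay above all 6 WT saline animals in this ratio, and KO AAV overlapped KO saline through replicate 5 alone. The ratio is a description with no test, since it sums genes chosen for this account, and no share of other such ratios was computed. Its marker sum rests mainly on 2 genes. Cx3cr1 averaged 117, 122 and 125 CPM, and P2ry12 61.4, 64.7 and 53.3 CPM, in KO AAV, KO saline and WT saline. KO saline replicate 4 had the lowest marker sum (255 CPM) and the highest ratio, whereas replicates 1 and 3 were high in both C1q and marker sums.

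**Figure D3:**
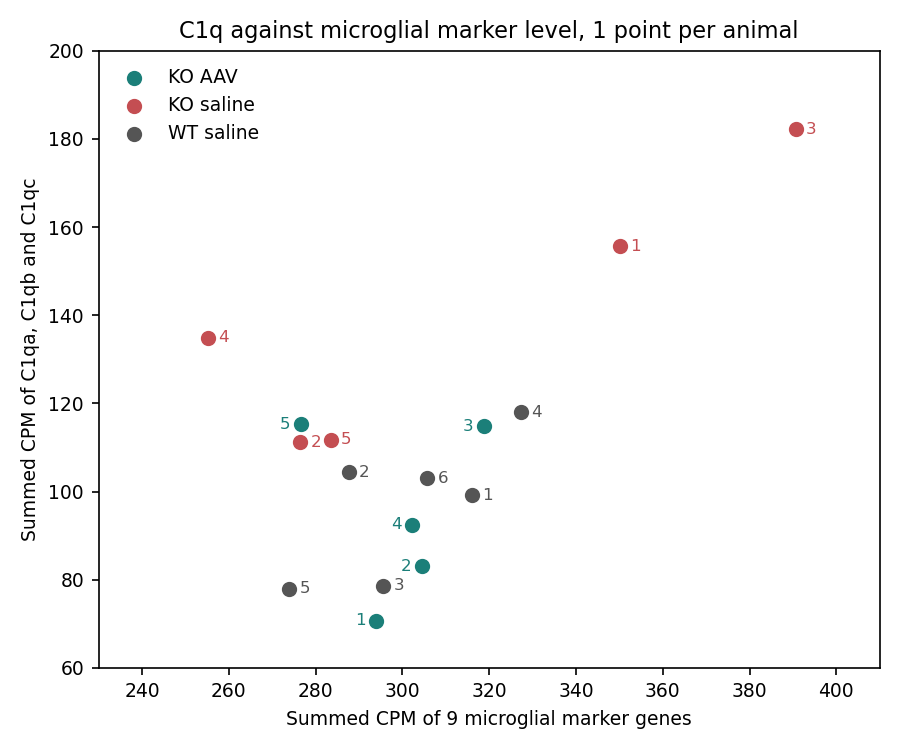
Summed CPM of C1qa, C1qb and C1qc against the summed CPM of 9 microglial marker genes, 1 point per animal with its replicate number, with axes that do not start at 0. KO saline animals stand at 0.394 to 0.528 C1q per unit of marker sum, against 0.240 to 0.417 in KO AAV and 0.266 to 0.363 in WT saline.

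Other cells that could contribute were looked at by marker lists. Mrc1, a mannose receptor of border-associated macrophages, which also make C1q, measured 2.67 to 7.33 CPM in KO AAV, 6.45 to 8.15 CPM in KO saline and 2.22 to 6.14 CPM in WT saline. Its log2 change was 0.72 (SE 0.28) for KO saline over WT saline and -0.62 (SE 0.29) for KO AAV over KO saline (edgeR adjusted p = 0.994 and 1.00). It was the 1 of 6 markers of these macrophages that passed the count filter. Among the others, Pf4, F13a1 and Ms4a7 had higher means in KO saline than in WT saline, and Cd163 and Lyve1 lower means. Pf4, Lyve1 and F13a1 had higher means in KO AAV than in KO saline, and Cd163 and Ms4a7 lower means. The 6 summed to 9.97 to 14.7 CPM in KO AAV, 10.4 to 17.8 CPM in KO saline and 6.64 to 18.0 CPM in WT saline. Neutrophil and monocyte markers, 0 of 6 passing the filter, summed to 1.87 to 9.60 CPM in KO AAV, 6.18 to 26.6 CPM in KO saline and 1.85 to 14.4 CPM in WT saline. For choroid plexus, with 0 of 5 passing, the sums were 3.74 to 9.04 CPM in KO AAV, 2.96 to 29.0 CPM in KO saline and 1.84 to 8.31 CPM in WT saline. No marker in these 3 lists was at 0 in all libraries, and the part of these cells in the C1q values was not tested. Among 9 astrocyte markers Gfap passed (log2 change 1.73, SE 0.18, adjusted p = 3.86e-05, for KO saline over WT saline; -1.21, SE 0.19, adjusted p = 0.0086, for KO AAV over KO saline, edgeR), while the summed list was 9175 to 10702 CPM in KO AAV, 9482 to 12256 CPM in KO saline and 9392 to 11078 CPM in WT saline.

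Among themselves the C1q chains varied together in part. Over the 16 libraries, on log2(CPM + 0.5), C1qa followed C1qb with Pearson's r = 0.72 (permutation p = 0.00182) and Spearman's rho = 0.54 (permutation p = 0.0338). It followed C1qc with r = 0.65 (permutation p = 0.00704) and rho = 0.69 (permutation p = 0.00381). For C1qb and C1qc, r was 0.51 (permutation p = 0.045) and rho was 0.46 (permutation p = 0.0759). After adjustment over the 5 relations computed, the p of r were 0.0091, 0.0176 and 0.0623, and those of rho 0.0845, 0.019 and 0.122. Without KO saline replicates 3 and 1, the 2 farthest from the median, r was 0.43, 0.55 and 0.39, and with each group's mean removed it was 0.61, 0.46 and 0.26. The relation of C1qa to C1qb was thus weaker without those 2 animals.

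For C1q and the microglial marker sum, r was 0.50 (permutation p = 0.0499, adjusted 0.0623) and rho was 0.31 (permutation p = 0.239, adjusted 0.239). With group means removed r was 0.59, and without the same 2 animals it was -0.15, so this relation rests on them. C4b and Gfap gave r = 0.41 (permutation p = 0.113, adjusted 0.113) and rho = 0.43 (permutation p = 0.0976, adjusted 0.122), with r = 0.30 after leaving out KO saline replicates 4 and 3 and -0.32 with group means removed. The shares of the chains in the C1q sum overlapped between groups. C1qc supplied 45.0 ± 2.90% in KO AAV, 42.4 ± 7.77% in KO saline and 41.5 ± 6.24% in WT saline (SD, n = 5, 5 and 6). C1qa supplied 29.6 ± 2.12%, 32.1 ± 2.61% and 33.3 ± 6.23% of it in KO AAV, KO saline and WT saline.

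Of 6214 other tested genes with a mean of at least 20 CPM, those whose log2 levels followed the C1q sum most closely over the 16 libraries were Ctsd (r = 0.87), Npc2 (0.86), Ctxn2 (0.84), Apoe (0.84) and Pdxp (0.84). Ctsd encodes the lysosomal protease cathepsin D, Npc2 a lysosomal cholesterol carrier and Apoe apolipoprotein E. With group means removed r was 0.82, 0.80, 0.87, 0.71 and 0.83 for the 5 genes in that order of r, highest for Ctxn2. For C4b the 5 closest genes were Ppp2r1a (r = 0.77), Ppm1d, Psmd12, Glod4 and Kat6b (0.70), from low C4b counts. All points share library depth, and these r values are given as a description.

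The rest of the complement system was read from 56 further genes of the cascade, its receptors, its regulators and proteins known to bind C1q. Of these, 20 were tested, 0 passed in any comparison in edgeR, and 17 were at 0 in all libraries, among them Cfb, Cfd, C6, C9 and Mbl1 of the alternative, terminal and lectin routes. For KO saline over WT saline 10 of the 20 had a positive log2 change, with a median of 0.01, and 2 had an unadjusted p under 0.05. Nptx1, a neuronal pentraxin of synapses, averaged 195 ± 21.2 CPM in KO saline and 139 ± 39.9 CPM in WT saline (log2 change 0.49, SE 0.18). Calr, the chaperone calreticulin that also binds C1q, averaged 142.5 ± 19.97 CPM in KO saline and 184 ± 42.8 CPM in WT saline (-0.37, SE 0.15). C1qbp, a mitochondrial protein named for binding C1q, came next by p, at 0.19 (SE 0.10), followed by Susd4, a membrane protein with complement-control repeats, at -0.23 (SE 0.14).

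For KO AAV over KO saline none of the 20 had an unadjusted p under 0.05, and 12 were positive, with a median of 0.015. The 4 lowest p belonged to Nptx1 (-0.36, SE 0.19), Itgb2 (-0.57, SE 0.30), Csmd1 (0.30, SE 0.25) and Calr (0.15, SE 0.16). Itgb2 encodes the beta chain of complement receptor 3, and Itgam, its alpha chain, stood at 0.13 (SE 0.20). Complement receptor 3 thus gave unlike signs for its chains, neither of them called. For KO AAV over WT saline the 4 lowest p belonged to Csmd3 (0.40, SE 0.22), Masp1 (0.42, SE 0.25), Itgam (0.31, SE 0.19) and Susd4 (-0.22, SE 0.14), again with no unadjusted p under 0.05. Csmd3 is a large membrane protein with complement-control repeats, and Masp1 a protease of the lectin route.

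Below the filter, 6 further genes with at least 20 counts in all were compared by two-sided exact permutation tests. C3ar1, the receptor for the C3a fragment, averaged 2.83 ± 1.61 CPM in KO AAV, 6.39 ± 2.61 CPM in KO saline and 3.62 ± 1.13 CPM in WT saline (SD, n = 5, 5 and 6). Its exact p was 0.0606 for KO saline against WT saline (0.24 adjusted over the 6 genes) and 0.0556 for KO AAV against KO saline (0.333 adjusted). C3ar1 was chosen for mention after its values were seen. Cfp, the alternative-route stabilizer properdin, had the lowest p of the 6 in KO AAV against WT saline, with 3 counts in KO AAV and 13 in WT saline (two-sided exact permutation p = 0.0303, 0.182 adjusted), and was likewise picked after its values were seen. The others were C1ra, Cd46, Cd55 and Cd59b, with exact p from 0.0801 upward in the 3 comparisons.

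**Figure D4:**
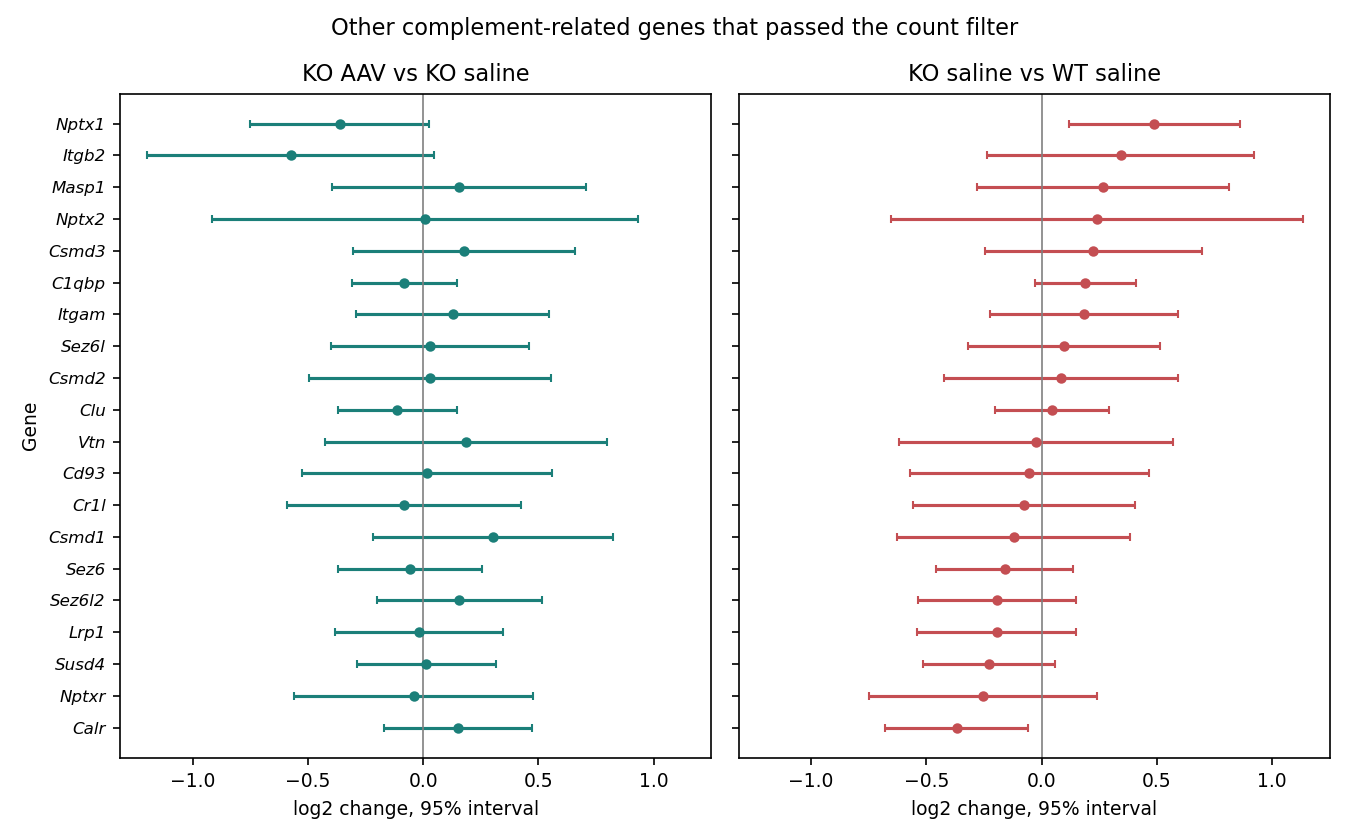
Fitted log2 changes with 95% intervals of the 20 other complement-related genes that passed the count filter, in KO AAV over KO saline (left) and KO saline over WT saline (right). Intervals of Nptx1 and Calr miss 0 on the right before adjustment, and all 20 intervals span 0 on the left.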

How the data were processed

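RNA came from frozen brain powder of cortex after perfusion, and sequencing used a QuantSeq 3' forward kit with unique molecular identifiers, per the labels' protocols. FastQC 0.11.5, STAR, MultiQC 1.0, R 4.2, edgeR 3.40.2 and build GRCm38.p6 are named in the submitters' processing notes; the sources used here do not say how reads were counted, on which strand or against which annotation. Raw counts per gene were deposited by the authors, with at most 2 significant digits, so counts of 100 or more are rounded. They also deposited a CPM signal, likewise rounded, used in an alternative, and per-library normalization factors, a ratio that multiplies the library size, which the tests here did not use.

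Counts were filtered with filterByExpr, scaled by TMM and tested with edgeR's quasi-likelihood F-test in 1 fit over all 16 libraries with group as factor (R 4.3.3, edgeR 4.0.16, limma 3.58.1, DESeq2 1.42.0, data.table package 1.17.8). Adjusted p are Benjamini-Hochberg values over all 10363 tested genes, threshold 0.05; intervals are 95% and cover this fit only. Genes below the filter had two-sided exact permutation tests of mean CPM, and correlations had 100000 permutations. The scripts were tested on simulated data. The floor of 3 counts covers counting error only. Alternatives covered scaling, filters, DESeq2, limma, sex, RNA integrity, a replicate block and leaving out each animal. All 7 genes, Grn and the 4 lowest p of the wider complement list per comparison are named by rule. So are the 5 genes most like C1q and C4b. Mrc1, Gfap, Rtp4, Ifit1, Usp18, Bst2, C3ar1 and Cfp were chosen after their values were seen. The members and lists were chosen with earlier results of these data known. Marker lists covered microglia, astrocytes, border-associated macrophages, meninges and fibroblasts, endothelium, choroid plexus, neutrophils and monocytes, erythrocytes, neurons, oligodendrocytes and interferon response; the list symbol C5 was matched as Hc, and some listed genes are not reported here.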

Additional observations from a re-analysis of the deposited data

Results flagged for a closer look

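Of 18 gene and group combinations looked at among the complement genes (C3 was too low), 1 library stood far from the others of its group, where chance gives about 1 in 20. Serping1 measured 6.23 CPM, from 10 counts, in KO AAV replicate 5, and 2.14 to 2.67 CPM, from 4 or 5 counts, in the other 4 KO AAV animals. Without that animal KO AAV averaged 2.33 ± 0.232 CPM (SD, n = 4), against 3.59 CPM in KO saline (exact permutation p = 0.302) and 2.03 CPM in WT saline (exact permutation p = 0.467), so Serping1 passed in no comparison with or without it.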

How the results depend on the processing

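In none of 27 alternatives (16 of them leaving out an animal) did a tested complement gene pass an adjusted p of 0.05 in any comparison. C1qa, C1qb, C1qc and C4b kept their signs throughout for KO saline over WT saline and for KO AAV over KO saline. Their smallest adjusted p were 0.653 and 0.836. Signs turned for small changes alone, and the cause was not tested. With the males alone, Cd59a was at 0.14 for KO saline over WT saline, -0.19 for KO AAV over KO saline and -0.045 for KO AAV over WT saline, and C4b was at 0.054 for KO AAV over WT saline. The replicate block gave 0.066 for C1qb and -0.058 for Cd59a in KO AAV over WT saline and changed no call among the complement genes (over all genes it made 3, 1 and 1 calls); at an unadjusted p under 0.05 it left 3 of them in each of the other comparisons. Same-numbered animals of different groups were checked for shared deviations: 6 of 15 such library pairs correlated above 0.1 over 6217 genes. Their r ran from -0.57 to 0.61. The median r was -0.039, against -0.023 for pairs of different numbers, so the replicate number was not taken as a pairing. In limma on log2(deposited CPM + 0.25) and (+ 1), Cd59a was at -0.15 and -0.11 for KO AAV over WT saline. Leaving out 1 animal, Cd59a ran from -0.33 to 0.18 for KO saline over WT saline, -0.17 to 0.38 for KO AAV over KO saline and -0.30 to 0.23 for KO AAV over WT saline. In that last comparison C1qb ran from -0.10 to 0.13 and C4b from -0.38 to 0.060. With 2 groups in a fit, C4b (KO AAV over WT saline) and Cd59a (all comparisons) fell below the filter and gave no value. Over all genes, the 5, 2 and 1 calls of the 3 comparisons were 16, 4 and 2 without a count filter, which tests more genes, and ran from 2 to 16, 0 to 4 and 1 to 2 over all alternatives. Depth limits C3, Serping1, C4b and Cd59a most, with 0 to 19 counts per library.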

Other observations

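The 8 interferon response genes used, a group to which Serping1 is known to belong, summed to 16.4 to 18.7 CPM in KO AAV, 18.5 to 27.4 CPM in KO saline and 20.7 to 29.1 CPM in WT saline. These sums are a description with no test, and 0 of the 2 genes that were tested passed in edgeR. Rtp4 was at -0.84 (SE 0.32) for KO AAV over KO saline and -0.71 (SE 0.31) for KO AAV over WT saline, and Ifit3 at -0.02 (SE 0.32) and -0.11 (SE 0.29), with adjusted p of 0.881 or more. The members did not all share a direction. Against WT saline, means in KO AAV were lower for Rtp4, Ifit1, Ifit3, Isg15, Irf7, Oasl2 and Bst2, and higher for Usp18. Against KO saline they were lower for the same genes except Bst2, which, like Usp18, was higher. Ifit1 averaged 2.26 CPM in KO AAV, 4.10 CPM in KO saline and 4.30 CPM in WT saline. Usp18 averaged 0.938, 0.542 and 0.646 CPM, and Bst2 averaged 2.06, 1.58 and 2.45 CPM, in that order of groups.

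The sums of the remaining lists overlapped between groups. Meningeal and fibroblast genes summed to 24.6 to 37.3 CPM in KO AAV, 24.7 to 50.03 CPM in KO saline and 18.8 to 37.7 CPM in WT saline. Endothelial genes summed to 224 to 310 CPM in KO AAV, 236 to 273 CPM in KO saline and 216 to 259 CPM in WT saline. For erythrocyte genes the ranges were 155 to 566, 45.1 to 724 and 138 to 460 CPM in KO AAV, KO saline and WT saline. Neuronal genes ran from 4934 to 6512, 4050 to 6825 and 4079 to 6976 CPM, and oligodendrocyte genes from 3784 to 6190, 3747 to 5286 and 3382 to 5834 CPM, in that order of groups.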
